A study of Homo sapiens with 32 samples.

Results

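THP-1 cells that lacked ATP-citrate lyase (ACLY) were compared with cells carrying wild type ACLY, both without stimulation. The comparison used 4 KO and 4 WT libraries, which are 8 of the 32 libraries of the series, and all 12406 genes, out of 60107, whose mean deposited value over the series was at least 10. At that limit WDR19 (mean 10.005) was inside and RPL6P27 (mean 9.99) outside. THP-1 is a human monocytic line derived from a myeloid leukemia. The study asked how ACLY activity and its phosphorylation affect histone acetylation and inflammatory gene expression, and the KO and WT cells without stimulation show what differs at baseline. The KO cells carried an ACLY knockout and received no treatment. The WT cells were ACLY knockout cells that had been transduced by lentivirus with the wild type ACLY coding sequence. It was expressed from a vector with an EF1 promoter and a puromycin resistance gene. After transduction these cells were selected with puromycin, and like the KO cells they had no further treatment in this comparison. The HA and SA cells, with 4 untreated libraries each, were made in the same way with ACLY H760A, which is catalytically inactive, and ACLY S455A, which lacks a phosphorylation site. The KO LPS and WT LPS cells were KO and WT cells given LPS for 3 hours, at 100 ng/ml by the labels, while a passage of the methods on cell treatments gives 10 ng/ml. All 4 lines therefore share the knockout background. The study chose transduced WT cells as the reference because knockout clones grown from single cells had varied in expression. An empty vector for the KO cells is not mentioned in the methods, and whether the knockout line used here was 1 clone is not given in the sources used here. There was 1 line per genotype, so genotype, transduction, puromycin selection and any other difference between the lines cannot be told apart. The labels number the libraries of a group from 1 to 4 and do not say whether they came from separate cultures. The p-values of the main comparison measure only the spread between libraries within a group, pooled over the 8 groups of the 32 libraries. That spread may be technical.

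ACLY cleaves citrate in the cytosol into acetyl-CoA and oxaloacetate. The acetyl-CoA feeds the synthesis of fatty acids and sterols, and it supplies acetyl groups for histones and other proteins. In monocytes, interferons bind surface receptors, activate Janus kinases and the STAT transcription factors, and so switch on many antiviral and antigen presentation genes.

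Libraries were made from the 3′ ends of transcripts (QuantSeq), and values are normalised reads per gene on a scale shared by all lines. The WT libraries held 6688646 to 11400696 reads on genes and the KO libraries 7346395 to 10505540. Replicate 3 stood apart in both groups, with a root mean square log2 distance to the rest of its group of 1.10 in KO cells, against 0.45 to 0.64 for the other KO libraries, and of 0.79 in WT cells, against 0.41 to 0.44. Ribosomal protein genes took 9.23% to 12.3% of the reads in the KO libraries and 13.2% to 15.4% in the WT libraries. The 10 monocytic markers were all detected. Of these, 3 (LYZ, CD14 and FCER1G) were called higher and none lower, against 1.8% and 1.1% of all genes tested. The summed level of the 10 was 15051 to 16338 normalised reads in the WT libraries and 28026 to 38507 in the KO libraries. LYZ made up most of the difference, and without it the sums were 10166 to 11977 in the WT libraries and 11564 to 17069 in the KO libraries. The log2 fold change was negative for 2 of the 10, ITGAM (-0.54) and CD33 (-0.46), neither of them called, and CD33 was lower in every KO library than in any WT library. Of the T cell list, CD3D, CD3E, CD3G and CD8A were at 0 in all 8 libraries, as was the B cell marker MS4A1. CD2 and TRAC, the other T cell members, summed to 6.72 to 13.4 in the WT libraries and 4.6 to 17.6 in the KO libraries. The summed B cell list was 69.1 to 105 in WT cells and 150 to 211 in KO cells, with PAX5 called higher, the fibroblast list was 24.6 to 31.8 in WT cells and at most 6.41 in KO cells, and the erythroid, platelet and epithelial lists at most 12.2. The part of these differences in the results below was not tested. In bulk RNA, fewer cells of a kind and less RNA per cell cannot be told apart.

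ACLY itself (ENSG00000131473, chr17:41866917-41930542, GRCh38) had 117, 101, 90.7 and 97.1 normalised reads in the WT libraries and 97.5, 107, 82.4 and 67.2 in the KO libraries. The ranges overlapped (log2 fold change -0.21, SE 0.28, adjusted p = 0.884). Only 3′ end reads summed per gene were analysed, without the place of the reads along the gene or of the lesion, so this level does not check the labels. The plot of 19 genes in every library includes it beside the genes described below.

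**Figure D1:**
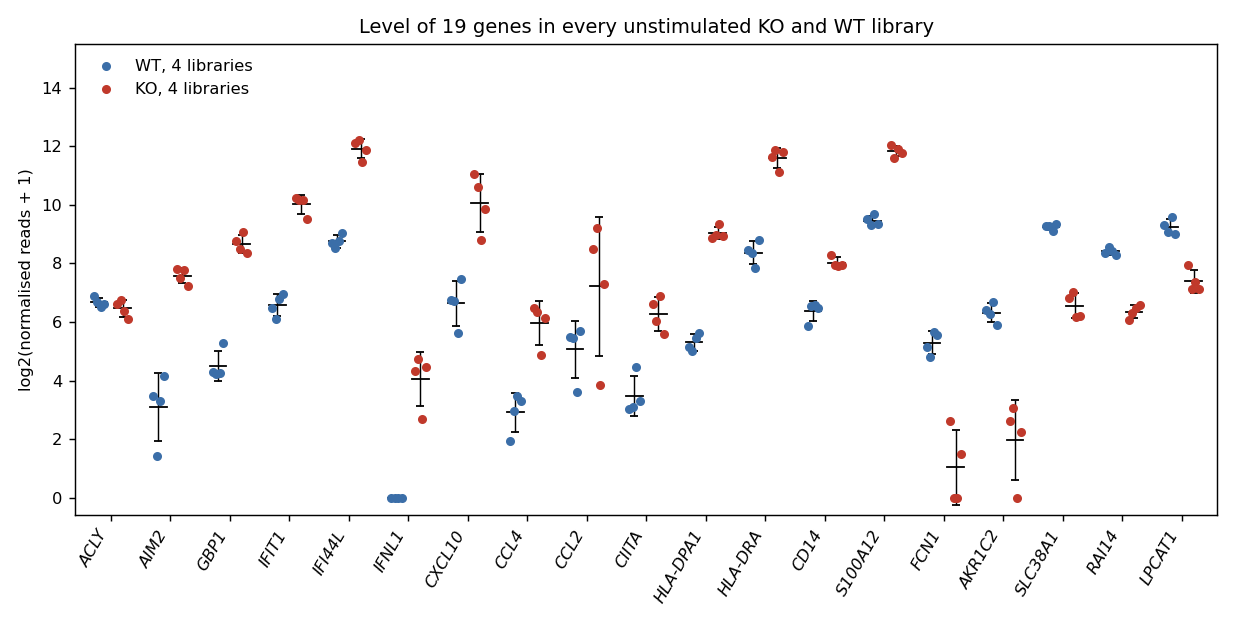
Log2 of normalised reads plus 1 for 19 genes in each WT library (blue) and KO library (red). Horizontal bars are means and error bars are SDs over 4 libraries. ACLY and CCL2 overlap between the groups, while the other 17 genes do not. The 19 genes were chosen with their values known, and 12.0% of all genes tested do not overlap.

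Loss of ACLY went with higher expression of interferon response and MHC class II genes, and with lower expression of a smaller and more mixed group that included a block of neighbouring genes on chromosome 5. In all, 360 of 12406 genes (2.9%) were called at an adjusted p below 0.01, of which 223 (1.8%) were higher in KO cells and 137 (1.1%) were lower. The change was at least 2-fold for 172 of the higher and 89 of the lower genes, with median log2 fold changes of 1.54 and -1.22. Over all genes tested the median was -0.03. The 4 KO libraries lay outside the range of the 4 WT libraries for 358 of the 360 called genes, against 12.0% of all genes tested. The calls and the ranges rest on the same KO and WT libraries, so this separation is a description and no added support. Of the higher genes 220 were protein coding and 3 were long non-coding RNAs, and of the lower genes 122 and 14, with 1 of another kind.

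KO and WT libraries of the same replicate number deviated together, clearly so for replicate 3 (the check is given with the processing). With the number as a block 724 genes (5.84%) were called, 413 (3.33%) of them higher and 311 (2.51%) lower, including 343 of the 360. These shares, and 1.8% and 1.1% without the block, are the background of the counts of list members given below. The same block on the 16 KO and WT libraries with and without LPS called 1151 (9.28%), 588 (4.74%) of them higher and 563 (4.54%) lower. Where the block is named for a gene or list below, it is that on 8 libraries unless 16 are named. On the deposited scale, which was set separately for each line, 369 genes were called and 50.1% of them were higher, against 61.9% on the shared scale. Without replicate 3 of both groups 231 genes were called. The called genes nearest to the limit were SOBP (log2 fold change -1.38, adjusted p = 0.0098) and RNF213 (1.06, adjusted p = 0.00998), and the genes just past it were NNT-AS1 (-0.85, adjusted p = 0.01) and ETV7 (2.19, adjusted p = 0.0102). Unadjusted p was below 0.05 for 1770 genes.

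**Figure D2:**
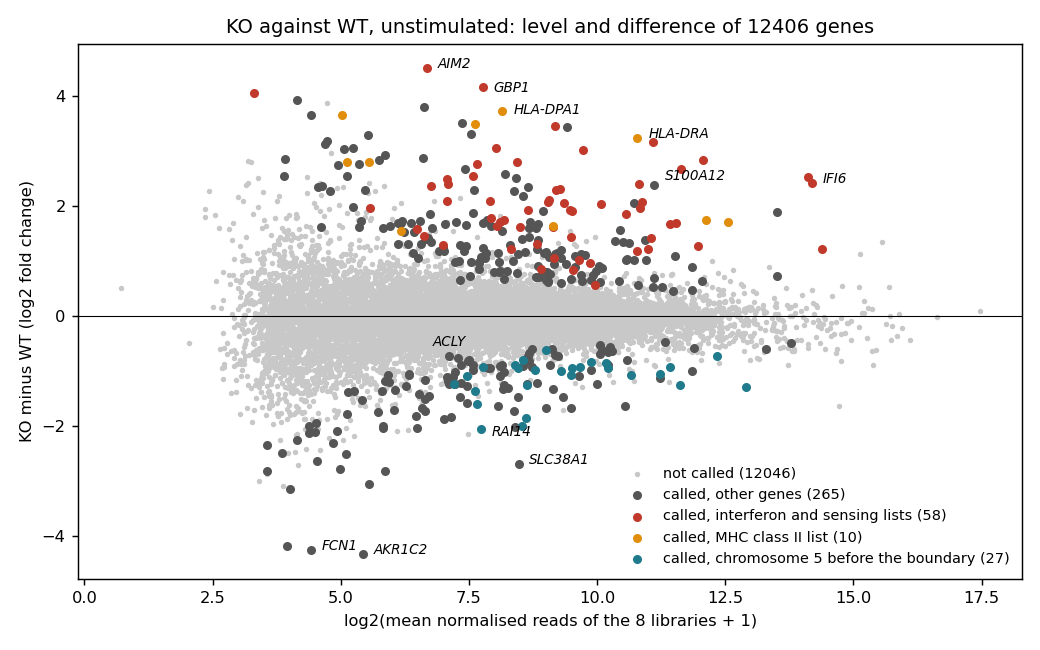
Log2 fold change of KO against WT (vertical axis) by the log2 mean level over the 8 libraries (horizontal axis) for 12406 genes. Called genes are coloured by group: 58 of the interferon and sensing lists, 10 of the MHC class II list, 27 of chromosome 5 before the boundary and 265 others, with AIM2 and GBP1 highest and AKR1C2 lowest.

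The largest rises were in genes of pathogen sensing, interferon response and antigen presentation. AIM2 (ENSG00000163568, chr1:159061599-159187843), a sensor of cytosolic DNA that starts inflammasome assembly, had 10.02, 1.67, 8.96 and 16.6 in the WT libraries and 222, 181, 220.3 and 151 in the KO libraries. Every KO library was far above the WT libraries, of which replicate 2 was the lowest (log2 fold change 4.50, SE 0.41, adjusted p = 1.12e-08). GBP1 (ENSG00000117228, chr1:89051882-89065360), a guanylate-binding GTPase that attacks intracellular bacteria, had 18.6, 17.6, 17.9 and 37.6 in the WT libraries and 432, 359, 534 and 328 in the KO libraries. Again the groups were far apart, although WT replicate 4 was higher than the other WT libraries (log2 fold change 4.16, SE 0.30, adjusted p = 6.34e-11). SLAMF7, a surface receptor of the SLAM family, had 14.3, 10.1, 13.4 and 10.5 in the WT libraries and 258, 174, 176 and 128 in the KO libraries, with no overlap (log2 fold change 3.79, SE 0.26, adjusted p = 2.62e-11).

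SLAMF7 and 3 more of the 15 largest rises were in genes that belong to none of the lists. GLT1D1, a gene with a glycosyltransferase domain, had 20.04, 25.1, 28 and 28 in the WT libraries and 254, 231, 414 and 318 in the KO libraries, a clear separation (log2 fold change 3.51, SE 0.23, adjusted p = 2.25e-11). RGL1, an exchange factor for Ral GTPases, had 18.6, 28.5, 61.6 and 31.5 in the WT libraries and 356, 346, 434 and 205 in the KO libraries and likewise did not overlap (log2 fold change 3.30, SE 0.32, adjusted p = 2.24e-08). TRPM8, the cold- and menthol-gated cation channel, was low in WT cells, at 11.4, 6.70, 3.36 and 10.5, and reached 88.5, 57.2, 111 and 72.7 in KO cells. All 4 KO libraries exceeded the WT libraries (log2 fold change 3.28, SE 0.58, adjusted p = 0.00037). The others are described with their families.

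Of 56 interferon-stimulated antiviral genes 43 were higher in KO cells and none was lower, against 1.8% of all genes tested called higher. All 56 had a positive log2 fold change, from 0.21 to 3.45 with a median of 1.76, and in 46 the 4 KO libraries lay above the 4 WT libraries, against 5.9% of all genes. The 4 IFIT proteins, which bind foreign RNA, were all called. IFIT1 had 87.3, 66.98, 109.8 and 122 in the WT libraries and 1209, 1140.1, 1146 and 739.6 in the KO libraries. KO replicate 4 was lower than the other KO libraries but still several times above any WT library (log2 fold change 3.45, SE 0.32, adjusted p = 1.42e-08). IFIT2 rose from 35.8, 50.2, 71.7 and 44.6 to 236, 362, 499 and 310.0 (log2 fold change 2.77, SE 0.31, adjusted p = 3.34e-07), and IFIT3 and IFIT5 had log2 fold changes of 3.01 and 2.36.

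IFI44L (ENSG00000137959, chr1:78619902-78646145), an interferon-induced protein of the IFI44 family, had 416, 365, 438 and 522 in the WT libraries and 4433, 4751, 2850.2 and 3767 in the KO libraries. The KO libraries were all well above the WT libraries (log2 fold change 3.16, SE 0.20, adjusted p = 1.26e-11). Its relative IFI44 rose less, from 124, 78.7, 90.7 and 140.0 to 281, 513, 396 and 307 (log2 fold change 1.77, SE 0.31, adjusted p = 0.000301). IFI6, an antiviral membrane protein, was among the most abundant of the list, with 6695, 4699, 5798 and 5974 in the WT libraries and 46213, 28027, 24077 and 28589 in the KO libraries. KO replicate 1 was the highest and none overlapped (log2 fold change 2.42, SE 0.19, adjusted p = 4.31e-10). RSAD2 encodes viperin, an enzyme that makes a chain-terminating nucleotide against viruses. It had 74.4, 41.02, 49.3 and 49.01 in the WT libraries and 627, 588, 285 and 354 in the KO libraries, with KO replicates 3 and 4 below the other KO libraries and above every WT library (log2 fold change 3.05, SE 0.34, adjusted p = 2.72e-07).

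The 4 oligoadenylate synthetases, which activate RNase L on double-stranded RNA, were all higher. OAS2 had 561, 486, 580.1 and 645 in the WT libraries and 3636, 2786, 3309.6 and 2396 in the KO libraries and OAS1 had 223, 149.9, 254 and 179 in the WT libraries and 1032, 875, 779.8 and 761 in the KO libraries. Neither gene overlapped between the groups (log2 fold changes 2.40 and 2.11, SE 0.20 and 0.18, adjusted p = 2.16e-09 and 2.18e-09). Both MX GTPases (MX1 2.83, MX2 2.30 on the log2 scale) and all 6 genes of the ISG15 conjugation system were called, from 1.31 for the activating enzyme UBA7 to 2.79 for the deconjugating protease USP18. EPSTI1, an interferon-induced protein of epithelial and immune cells, had 189, 182, 186 and 234 in the WT libraries and 939, 1279, 916 and 798 in the KO libraries, with no overlap (log2 fold change 2.29, SE 0.27, adjusted p = 9.09e-07). Members that were not called included BST2 (log2 fold change 0.21, adjusted p = 0.847), the RNA-editing enzyme ADAR (0.76, adjusted p = 0.174) and IFITM1 (2.36, adjusted p = 0.372). ADAR and IFITM1 passed with the replicate block (adjusted p = 0.000501 and 0.00207). IFITM1, IFITM2 and IFITM3 are close paralogs whose reads the counting could have split among them.

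Among the 5 guanylate-binding proteins, GBP1, GBP2, GBP4 and GBP5 were higher. GBP2 had 311, 344, 440.2 and 371 in the WT libraries and 704, 612, 1069 and 698 in the KO libraries (log2 fold change 1.05, SE 0.17, adjusted p = 0.000134), and all 4 KO libraries were above the WT libraries. GBP5 rose from 35.8, 46.9, 54.9 and 36.8 to 117, 147, 170.3 and 96.6 (log2 fold change 1.57, SE 0.33, adjusted p = 0.00221) and GBP4 from 57.3, 58.6, 82.9 and 94.5 to 237, 170.4, 135 and 178 (log2 fold change 1.29, SE 0.26, adjusted p = 0.00187). Neither overlapped, but both were called in only 5 of the 8 fits that left out 1 KO or WT library. GBP3 had a log2 fold change of 0.51 (adjusted p = 0.526).

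The promoters of 4 of these genes are shown because many of the called interferon genes hold the same letter pattern there. Each line gives the 250 bases before the RefSeq transcription start (GRCh38.p14), 5′ to 3′ on the gene's strand. Capitals mark the interferon-stimulated response element core (GAAA, any 2 bases, GAAA) in either orientation, the site bound by STAT complexes with IRF9 and by other IRF proteins. The windows are chr1:78620198-78620447, plus strand for IFI44L, chr1:89065209-89065458, minus strand for GBP1, chr1:27672193-27672442, minus strand for IFI6 and chr10:89327747-89327996, plus strand for IFIT3.
IFI44L: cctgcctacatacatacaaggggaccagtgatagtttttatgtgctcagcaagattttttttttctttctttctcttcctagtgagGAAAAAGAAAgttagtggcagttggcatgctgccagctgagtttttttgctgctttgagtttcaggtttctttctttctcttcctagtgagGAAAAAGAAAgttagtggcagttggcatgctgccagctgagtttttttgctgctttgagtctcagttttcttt
GBP1: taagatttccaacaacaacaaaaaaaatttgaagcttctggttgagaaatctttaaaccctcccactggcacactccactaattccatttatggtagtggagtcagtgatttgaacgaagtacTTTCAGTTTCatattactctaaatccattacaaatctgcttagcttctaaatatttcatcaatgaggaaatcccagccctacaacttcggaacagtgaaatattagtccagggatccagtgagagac
IFI6: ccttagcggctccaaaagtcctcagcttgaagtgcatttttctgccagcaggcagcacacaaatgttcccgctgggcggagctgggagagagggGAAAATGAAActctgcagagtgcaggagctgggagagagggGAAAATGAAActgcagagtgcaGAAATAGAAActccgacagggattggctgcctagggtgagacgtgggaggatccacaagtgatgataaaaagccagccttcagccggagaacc
IFIT3: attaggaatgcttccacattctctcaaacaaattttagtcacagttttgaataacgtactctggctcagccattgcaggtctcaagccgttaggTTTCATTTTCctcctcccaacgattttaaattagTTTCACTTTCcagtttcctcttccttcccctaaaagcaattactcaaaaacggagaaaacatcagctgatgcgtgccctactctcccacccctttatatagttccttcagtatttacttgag
IFI44L holds 2 copies, GBP1 1, IFI6 3 and IFIT3 2 in this window, and the copy nearest to the start begins 73, 127, 93 and 122 bases before it. Over 300 bases, from 250 before to 50 after the start, and on both strands, the core was found in 38 of 172 genes called higher, in 4 of 114 called lower and in 279 of 9706 genes tested (2.87%) that had a promoter sequence. It was found in 28 of the 45 called genes of the interferon and sensing lists. The GAS element TTCNNNGAA, bound by STAT dimers, was in 16 of the 172, 8 of the 114 and 616 of the 9706 (6.35%). Copies of the core can overlap each other and can share letters with the GAS pattern. Promoter sequences were matched for 77.1% of the higher, 83.2% of the lower and 78.2% of all genes tested, so a comparison of these shares is void and the counts are a description. A match is a pattern of letters and not evidence of binding.

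The components of interferon signalling themselves changed in part, with 6 of 24 tested genes called higher against 1.8% of all genes, and none lower. The 6 include IFNL1, which had no read in the WT libraries and passed the filter on the mean through other libraries only. Its call therefore adds nothing to the comparison with that share. Among the ligands, IFNL1, a type III interferon, was at 0 in all 4 WT libraries and had 19.2, 25.4, 5.41 and 21.2 normalised reads in the KO libraries. It was low but present in every KO library, and at least 23.3-fold higher when the WT group is set to the floor of 3 reads over its 4 libraries (adjusted p = 0.000475). The 11 other interferon genes of the list, IFNB1, IFNG and the IFNA genes among them, were below the level tested. None of the 5 receptor genes tested was called, and their log2 fold changes ran from -0.12 to 0.50. Of the kinases JAK2 rose, from 392.2, 359, 237 and 376 to 777, 624, 447 and 617 (log2 fold change 0.85, SE 0.17, adjusted p = 0.00117), without overlap between the groups.

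Among the transcription factors STAT2, which acts below the type I and type III receptors, had 102, 123, 180.3 and 111 in the WT libraries and 437, 359, 484 and 318 in the KO libraries, without overlap (log2 fold change 1.64, SE 0.28, adjusted p = 0.000238). IRF7, which amplifies type I interferon, and IRF1 had log2 fold changes of 1.93 (SE 0.42, adjusted p = 0.0033) and 0.84 (SE 0.17, adjusted p = 0.00213). IRF9, the DNA-binding partner of STAT2, had 1.21 (adjusted p = 0.393). None of the 5 inhibitor genes, SOCS1 and SOCS3 included, was called. The median of the list was 0.36, also with IFNL1 set at its bound, and 0.67 without KO replicate 3.

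Of 18 nucleic acid sensing genes 5 were higher and none lower, against 1.8% of all genes called higher. IFIH1, which encodes the RNA sensor MDA5, had 220.4, 181, 279 and 346 in the WT libraries and 903, 917, 1145 and 1212 in the KO libraries (log2 fold change 2.05, SE 0.23, adjusted p = 3.24e-07), and DDX58, which encodes RIG-I, had 78.7, 66.98, 118 and 95.4 in the WT libraries and 382, 355, 535 and 274 in the KO libraries (log2 fold change 2.09, SE 0.24, adjusted p = 7.96e-07). No KO library of either gene fell into the WT range. TLR7, an endosomal RNA receptor, and DNASE2, a lysosomal DNase, were also called (log2 fold changes 1.97 and 1.02, SE 0.36 and 0.14, adjusted p = 0.000587 and 7.93e-06). The adaptors and kinases downstream of the sensors (TMEM173, MAVS, TICAM1, MYD88, TBK1 and IKBKE) were not called, with log2 fold changes of -0.08 to 0.69.

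MHC class II genes rose together with their regulator. Of 15 genes tested 10 were higher and none lower (1.8% of all genes called higher), with a median log2 fold change of 1.74 and with 11 in which the KO libraries lay above the WT libraries. CIITA, the coactivator that switches on the class II genes, had 7.16, 7.54, 21.3 and 8.75 in the WT libraries and 96.2, 64.6, 116 and 46.9 in the KO libraries. It was low in both groups and higher in every KO library (log2 fold change 2.80, SE 0.43, adjusted p = 6.2e-05). RFX5, RFXAP and RFXANK, which bind the class II promoters with it, were not called (log2 fold changes 0.36, -0.29 and -0.15).

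Among the surface chains HLA-DRA (ENSG00000204287, chr6:32439878-32445046) had 354, 324, 229.6 and 447 in the WT libraries and 3216, 3750.5, 2239 and 3545 in the KO libraries. Replicate 3 was lowest in both groups and every KO library was several times above the highest WT library (log2 fold change 3.24, SE 0.30, adjusted p = 9.89e-09). HLA-DPA1 had 34.4, 30.98, 42.6 and 48.1 in the WT libraries and 471, 499, 650.0 and 493 in the KO libraries (log2 fold change 3.73, SE 0.20, adjusted p = 1.92e-13), and HLA-DPB1 had 31.5, 20.1, 40.3 and 35.9 in the WT libraries and 332, 352, 362 and 379.9 in the KO libraries (log2 fold change 3.48, SE 0.25, adjusted p = 6.34e-11). For both, the lowest KO library was far above the highest WT library. HLA-DQA1 went from 1.43, 3.35, 11.2 and 2.62 to 58.98, 76.2, 48.6 and 50.6 (log2 fold change 3.66, SE 0.69, adjusted p = 0.000843), with WT replicate 3 the highest WT library. HLA-DRB1 and HLA-DRB5 were called (log2 fold changes 1.71 and 1.63), and HLA-DQB1 was not (1.83, adjusted p = 0.0195) but passed with the replicate block (adjusted p = 3.39e-05), with which all 7 surface chains were called. These chains are polymorphic and near-identical to each other, so reads may be split or lost among them.

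CD74, the invariant chain that guards the peptide groove, was abundant, with 1825, 1684, 2853 and 1876 in the WT libraries and 6282, 5543, 9487 and 6174 in the KO libraries. Replicate 3 was highest in both groups and no library overlapped (log2 fold change 1.74, SE 0.19, adjusted p = 3.13e-07). HLA-DMA and HLA-DMB, which exchange the invariant peptide for antigen, were both called (log2 fold changes 1.54 and 2.80). The next promoters are shown because 7 of the 8 called class II genes with a sequence hold a CCAAT box, the site of NF-Y, which acts with RFX and CIITA. The letters CCAAT were in 3617 of the 9706 tested promoters (37.3%), 58 of 172 promoters of higher genes and 41 of 114 of lower genes, so the box is common. Lines are as above, with CCAAT in either orientation in capitals, at chr6:33075740-33075989, plus strand for HLA-DPB1, chr5:150412911-150413160, minus strand for CD74, chr6:32530288-32530537, minus strand for HLA-DRB5 and chr6:32953098-32953347, minus strand for HLA-DMA.
HLA-DPB1: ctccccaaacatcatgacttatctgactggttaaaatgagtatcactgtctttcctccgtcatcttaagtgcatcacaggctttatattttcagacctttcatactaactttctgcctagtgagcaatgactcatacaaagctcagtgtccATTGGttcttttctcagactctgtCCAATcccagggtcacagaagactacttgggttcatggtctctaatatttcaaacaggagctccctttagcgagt
CD74: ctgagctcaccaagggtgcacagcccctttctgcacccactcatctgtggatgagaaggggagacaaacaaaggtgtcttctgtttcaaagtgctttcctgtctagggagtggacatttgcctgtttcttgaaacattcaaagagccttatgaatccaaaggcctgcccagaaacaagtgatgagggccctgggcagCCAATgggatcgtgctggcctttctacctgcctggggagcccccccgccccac
HLA-DRB5: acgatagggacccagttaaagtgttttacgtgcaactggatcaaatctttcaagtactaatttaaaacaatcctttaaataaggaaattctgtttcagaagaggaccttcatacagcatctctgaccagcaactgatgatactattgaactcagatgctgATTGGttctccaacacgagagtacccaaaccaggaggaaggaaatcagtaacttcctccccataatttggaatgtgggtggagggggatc
HLA-DMA: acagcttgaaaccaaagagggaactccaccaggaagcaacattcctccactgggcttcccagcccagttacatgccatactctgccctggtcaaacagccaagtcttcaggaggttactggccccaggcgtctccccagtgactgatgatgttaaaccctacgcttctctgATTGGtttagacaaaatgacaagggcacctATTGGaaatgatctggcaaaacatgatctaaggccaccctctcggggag
The box nearest to the start begins 75 bases before it in HLA-DPB1, 53 in CD74, 90 in HLA-DRB5 and 49 in HLA-DMA. The interferon-stimulated core was in none of the 8 class II promoters, which says only that these letters are not in this window.

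Of 23 MHC class I presentation genes 5 were higher and none lower (1.8% of all genes called higher), and 9 were higher with the replicate block (3.33% of all genes). HLA-E, a non-classical chain recognised by NK cells, had 833, 698, 822 and 720.2 in the WT libraries and 1517, 1528, 1343 and 1268 in the KO libraries (log2 fold change 0.88, SE 0.10, adjusted p = 4.04e-07), so that each KO library was above each WT library. PSMB9, an immunoproteasome subunit, had 1393, 1114, 1375 and 1308 in the WT libraries and 3188, 2625, 2150.1 and 2654 in the KO libraries (log2 fold change 1.02, SE 0.20, adjusted p = 0.000962). TAP1, a subunit of the peptide transporter, and HLA-F were called too (log2 fold changes 1.36 and 1.75, adjusted p = 0.00341 and 0.00641), but each in only 3 of the 8 fits without 1 library. HLA-B and HLA-C were not called, with log2 fold changes of 0.45 and 0.50. B2M, the shared light chain, had 32103, 29853, 27816 and 24864 in the WT libraries and 54012, 45549, 34274 and 33776 in the KO libraries. Every KO library was higher. The difference did not pass without the pairing (log2 fold change 0.53, SE 0.20, adjusted p = 0.183) and passed with the replicate block (adjusted p = 0.00947 on 8 and 0.00354 on 16 libraries).

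Of 22 cytokine and chemokine genes tested 6 were higher and none lower (1.8% of all genes called higher), and 10 were higher with the replicate block (3.33% of all genes). The CXCR3 ligand CXCL10, which attracts T cells, had 106, 105, 48.2 and 174 in the WT libraries and 2109, 1556, 442 and 927 in the KO libraries. Replicate 3 was the lowest of both groups, and the KO libraries stayed above all WT libraries (log2 fold change 3.44, SE 0.43, adjusted p = 2.69e-06). CXCL11, a ligand of the same receptor, had 5.73, 10.9, 8.96 and 30.6 in the WT libraries and 119, 93.2, 71.6 and 80.03 in the KO libraries (log2 fold change 2.84, SE 0.38, adjusted p = 6.04e-06). TNFSF10, which encodes the death ligand TRAIL, had 106, 95.4, 207 and 136 in the WT libraries and 685, 647, 739 and 581 in the KO libraries (log2 fold change 2.34, SE 0.20, adjusted p = 2.5e-09). Neither gene overlapped between the groups.

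The macrophage inflammatory proteins CCL3 and CCL4 were called as well. CCL4 had 2.86, 6.70, 10.1 and 8.75 in the WT libraries and 88.5, 80.5, 28.4 and 69.9 in the KO libraries (log2 fold change 3.05, SE 0.53, adjusted p = 0.000329) and CCL3 had 47.2, 72, 118 and 85.8 in the WT libraries and 445, 349, 900.1 and 322 in the KO libraries (log2 fold change 2.57, SE 0.43, adjusted p = 0.000217). Both are nearly identical to copies (CCL3L3 and CCL4L2) that could share their reads. TNF rose less, with a log2 fold change of 0.67 (SE 0.15, adjusted p = 0.00586). CCL2, a monocyte attractant, had 44.4, 42.7, 11.2 and 50.8 in the WT libraries and 356, 596, 13.5 and 156 in the KO libraries. KO replicates 1, 2 and 4 were above the WT range but replicate 3 was not, and the difference did not pass (log2 fold change 2.15, SE 1.25, adjusted p = 0.489), nor with the replicate block on 8 libraries (adjusted p = 0.0109), but it passed with the block on 16 (adjusted p = 0.000203). Without KO replicate 3 the log2 fold change was 3.27. IL6 had no read in these libraries and was not tested.

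None of 22 subunits, inhibitors and targets of NF-kB was called, 3 were higher with the replicate block (3.33% of all genes), and the median log2 fold change was 0.37. PTX3, a secreted pattern recognition protein, had the smallest adjusted p of the list, at 109, 104, 90.7 and 82.3 in WT cells and 187, 217, 199 and 141 in KO cells (log2 fold change 0.93, SE 0.27, adjusted p = 0.0428, or adjusted p = 0.00302 with the replicate block), with the KO libraries above the WT libraries. BIRC3, an inhibitor of cell death, had log2 fold change 0.75 (adjusted p = 0.0574, or 0.000843 with the block on 16 libraries).

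In the list for the Toll-like receptor pathway, which detects LPS, 1 of 18 genes was called higher and none lower (1.8% of all genes called higher). TLR7, called above, was counted with the nucleic acid sensing genes and is not among the 18. CD14, the coreceptor that hands LPS to the receptor complex, had 57.3, 92.9, 95.2 and 87.5 in the WT libraries and 314, 244, 241 and 246 in the KO libraries. KO replicate 1 was the highest, and all KO libraries were well above the WT libraries (log2 fold change 1.66, SE 0.26, adjusted p = 6.54e-05). TLR4 and LY96, which form the receptor itself, were not called (log2 fold changes 0.48 and 1.04), nor was any of 11 signalling genes, which ran from -0.02 to 0.55.

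Granule and S100 genes were split. Of 22 tested, 3 were higher and 1 was lower, against 1.8% and 1.1% of all genes, or 6 and 2 with the replicate block, against 3.33% and 2.51%. S100A12, a calcium-binding alarmin of monocytes, had 739, 632, 818 and 650.2 in the WT libraries and 4230.1, 3139, 3859.7 and 3535 in the KO libraries. The libraries of each group were close to each other and far from the other group, and this gene had the smallest adjusted p of the comparison (log2 fold change 2.38, SE 0.12, adjusted p = 2.8e-14). LYZ, which encodes lysozyme, had 5599.6, 5804, 3768 and 4230.4 in the WT libraries and 17389.7, 26943, 10957 and 18948 in the KO libraries (log2 fold change 1.89, SE 0.34, adjusted p = 0.000425), with KO replicate 2 the highest. CTSD, a lysosomal protease, was called (1.09, adjusted p = 0.00219), and S100A8 and S100A9 were not (1.13 and 1.34, adjusted p = 0.0579 and 0.021), although both passed with the replicate block (adjusted p = 0.000107 and 2.02e-05). In the opposite direction FCN1, a secreted lectin that marks classical monocytes, had 34.4, 26.8, 49.3 and 46.4 in the WT libraries and 5.13, 0, 0 and 1.84 in the KO libraries. It was nearly lost in KO cells, with 2 KO libraries at 0 (log2 fold change -4.26, SE 0.81, adjusted p = 0.000866).

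Of 30 monocyte surface and differentiation genes 2 were called, both higher (1.8% of all genes called higher), and 5 with the replicate block (3.33%). SIGLEC1, a sialic acid receptor induced by interferon, had 147, 119, 149 and 119.9 in the WT libraries and 783, 543, 599 and 534 in the KO libraries (log2 fold change 2.18, SE 0.31, adjusted p = 1.65e-05). The groups did not overlap. CSF1R, the receptor of the growth factor M-CSF, and the scavenger receptor CD163 lay above the WT range in every KO library without passing the test (1.31 and 1.88, adjusted p = 0.0173 and 0.0186). Both passed with the replicate block (adjusted p = 8.56e-05 and 0.00649). Of the 10 monocytic markers given above 3 were called higher and none lower, against 1.8% and 1.1% of all genes.

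**Figure D3:**
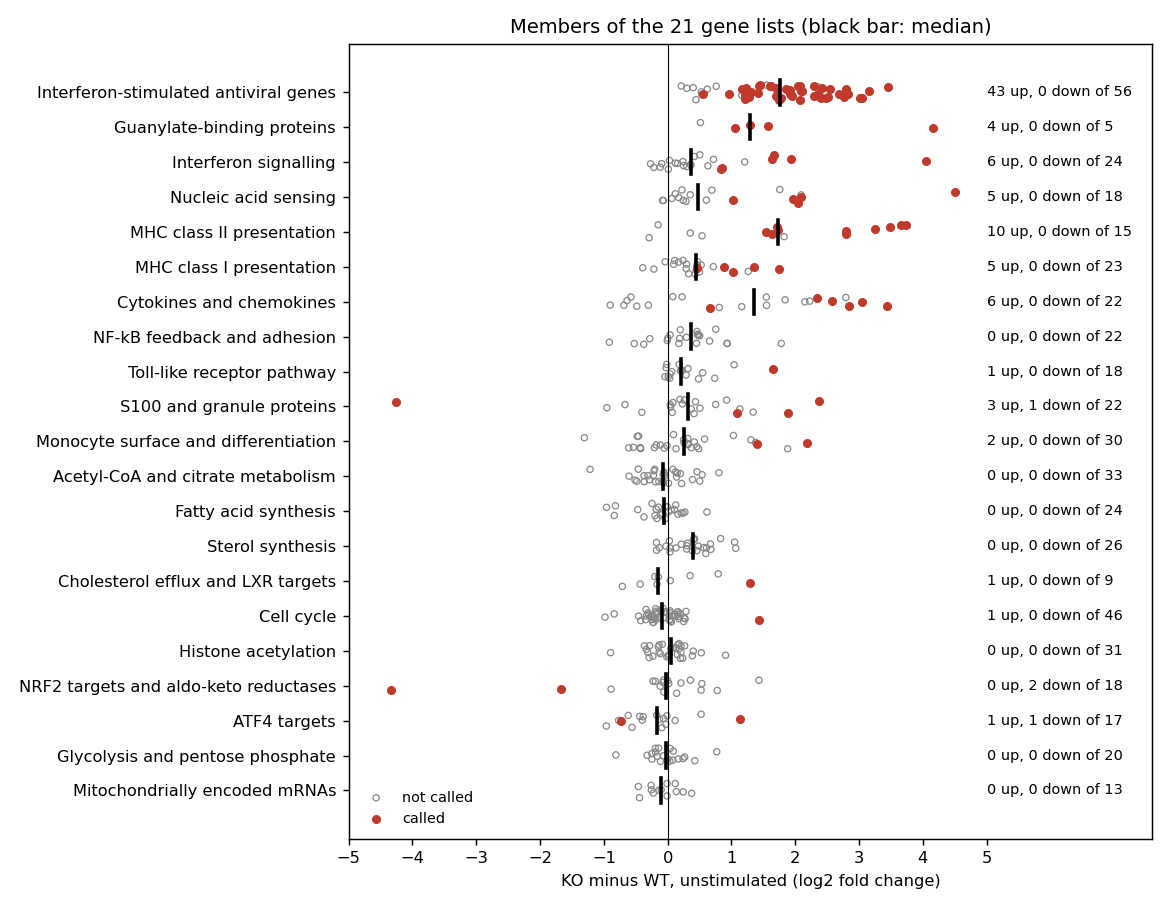
Log2 fold change of KO against WT for the tested members of 21 gene lists; filled points are called genes, open points are not, and the black bar is the median. The antiviral list has 43 of 56 genes called higher and the MHC class II list 10 of 15, while the metabolic lists have no more than 1 higher.

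Lipid and acetyl-CoA metabolism, in which ACLY acts, showed no gene called in 3 of the 4 lists. None of 33 genes of acetyl-CoA and citrate metabolism was called, with a median log2 fold change of -0.07, which was 0.0472 without KO replicate 3, and the smallest adjusted p was that of ACSS2. This enzyme, which makes acetyl-CoA from acetate, had 106, 86.2, 115 and 91.01 in the WT libraries and 139.8, 154, 238 and 178 in the KO libraries. Every KO library was above the WT range, and the difference did not pass (log2 fold change 0.80, SE 0.30, adjusted p = 0.151), except with the replicate block on 16 libraries (adjusted p = 0.00303). None of 24 fatty acid synthesis genes was called (median -0.06, or -0.14 to -0.0084 without 1 library). FASN, the fatty acid synthase, had 1998, 2209, 2187 and 1716 in the WT libraries and 1689, 2149.9, 2131 and 1930.0 in the KO libraries, which overlapped widely (log2 fold change -0.04, SE 0.22, adjusted p = 0.978). GPAM, the first enzyme of glycerolipid synthesis, was lower in each KO library than in each WT library, without passing (-0.84, adjusted p = 0.0228, or 0.00467 with the block on 16 libraries).

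In sterol synthesis 22 of 26 genes had a positive log2 fold change, against 5747 of all 12406, with a median of 0.40 (0.26 without KO replicate 4), but none was called, and 4 were higher with the replicate block (3.33% of all genes). MSMO1, a sterol demethylase step, had 346, 306, 248 and 346 in the WT libraries and 479.6, 704, 665 and 785 in the KO libraries. The KO libraries were all above the WT libraries (log2 fold change 1.07, SE 0.31, adjusted p = 0.0407, or adjusted p = 0.00109 with the replicate block). Of 9 genes of cholesterol efflux and the LXR receptors 1 was called, the apolipoprotein APOC1 (1.29, SE 0.29, adjusted p = 0.00525), in 3 of the 8 fits without 1 library. The efflux pump ABCA1 had 62.98, 36, 28 and 36.8 in the WT libraries and 100.0, 42.3, 22.97 and 26.7 in the KO libraries, which overlapped (log2 fold change 0.04, SE 0.67, adjusted p = 0.989), and ABCG1 was below the level tested. The sterol element TCACCCCAC was in the promoters of 2 of 172 higher and 1 of 114 lower genes, and of 0.422% of all with a sequence.

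Histone acetylation enzymes and readers were not called, 0 of 31, with a median log2 fold change of 0.05 that was -0.04 on the deposited scale and -0.0024 without WT replicate 4. With the replicate block 1 gene was higher, the tubulin deacetylase HDAC6 (0.91), and 1 was lower, the bromodomain protein BRD9 (-0.89), which lies on the short arm of chromosome 5. Of 46 cell cycle genes CDKN1A was called, the inhibitor of cyclin-dependent kinases also known as p21. It had 160.3, 203, 288 and 231 in the WT libraries and 660.4, 560.0, 653 and 490.3 in the KO libraries, without overlap (log2 fold change 1.44, SE 0.21, adjusted p = 2.39e-05). The proliferation markers MKI67, TOP2A, PCNA and TYMS were not called, with log2 fold changes of -0.23 to 0.20. None of 20 glycolysis and pentose phosphate genes and none of 13 mitochondrially encoded mRNAs was called.

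The lower genes were led by AKR1C2 (ENSG00000151632, chr10:4987775-5018031), an aldo-keto reductase that inactivates steroids. It had 84.5, 76.2, 101 and 58.6 in the WT libraries and 5.13, 7.41, 0 and 3.68 in the KO libraries. KO replicate 3 was at 0 and no KO library came near the WT libraries (log2 fold change -4.34, SE 0.70, adjusted p = 0.000115). AKR1C1 and AKR1C3 are close paralogs that could share its reads, and both were below the level tested. Only 1 of the 17 other NRF2 target and aldo-keto reductase genes was called, SLC7A11, the cystine carrier of glutathione synthesis, at 743, 1086, 760.5 and 549.6 in WT cells and 201, 329, 270.3 and 180.3 in KO cells (log2 fold change -1.67, SE 0.32, adjusted p = 0.000962). HMOX1, the heme oxygenase of the same list, was higher in every KO library but not called (1.43, adjusted p = 0.0333, or 7.61e-05 with the replicate block).

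SLC38A1, a carrier of glutamine and other neutral amino acids, had 614, 618, 553 and 656 in the WT libraries and 113, 128, 70.3 and 73.6 in the KO libraries. The ranges lay far apart (log2 fold change -2.70, SE 0.25, adjusted p = 1.14e-08). TRHDE, an ectoenzyme that degrades thyrotropin-releasing hormone, had 73, 72, 139 and 113 in the WT libraries and 3.85, 16.9, 22.97 and 15.6 in the KO libraries (log2 fold change -2.82, SE 0.43, adjusted p = 6.16e-05), and ZNF462, a zinc finger protein of embryonic development, had 57.3, 51.1, 47.04 and 59.5 in the WT libraries and 3.85, 8.47, 6.76 and 10.1 in the KO libraries (log2 fold change -2.78, SE 0.42, adjusted p = 4.34e-05). Both were at the lower end of the scale in all KO libraries. MSI2, an RNA-binding protein of hematopoietic stem cells and leukemia, had 129, 152, 134 and 154 in the WT libraries and 41.03, 29.6, 27.03 and 39.6 in the KO libraries (log2 fold change -2.04, SE 0.27, adjusted p = 6.04e-06). VAT1L fell from 58.7, 47.7, 41.4 and 82.3 to 6.41, 13.8, 5.41 and 12.9 (log2 fold change -2.51, SE 0.49, adjusted p = 0.00114).

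MS4A6A, a membrane protein of monocytes, had 673, 582, 318 and 562 in the WT libraries and 159, 206, 63.5 and 120.5 in the KO libraries. Replicate 3 was lowest in both groups and the groups did not overlap (log2 fold change -2.02, SE 0.34, adjusted p = 0.000172). GAPT, an adaptor that binds GRB2, had a log2 fold change of -1.87 (SE 0.36, adjusted p = 0.00106) and VIT, an extracellular matrix protein, of -2.04 (SE 0.45, adjusted p = 0.00372), the latter called in 4 of the 8 fits without 1 library. Among the non-coding RNAs LINC00504 had 91.6, 75.3, 87.4 and 56.9 in the WT libraries and 21.8, 12.7, 0 and 23 in the KO libraries (log2 fold change -3.06, SE 0.69, adjusted p = 0.00536), and it was called in 3 of those 8 fits. Without KO replicate 3 the value was -1.99. FOXP4-AS1 and PCED1B-AS1, antisense to protein coding genes, had log2 fold changes of -2.01 and -1.84, and whether the counting used strand is not given in the sources used here, so their reads cannot be told apart from those of their partners. In the ATF4 list of amino acid stress 1 of 17 genes was higher, the transcription factor ATF3 (1.14, adjusted p = 0.00078), and 1 was lower, PHGDH, the first enzyme of serine synthesis (-0.73, adjusted p = 0.00651). PHGDH was called in 1 of the 8 fits without 1 library.

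The short arm of chromosome 5 stood out in the position of the lower genes. This region was chosen after its values were seen. Of its 97 tested genes, all before position 50 Mb (the last begins at chr5:44826076 and the next tested gene, EMB, at chr5:50396192, GRCh38), 27 were called lower and none higher, which is 27.8% against 1.1% of all genes tested. It held 0.782% of the genes tested and 19.7% of the genes called lower. In 92 of the 97 genes the log2 fold change was negative, in 53 (54.6%) the 4 KO libraries lay below the 4 WT libraries, against 6.13% of all genes, and the median was -0.93, with quartiles at -1.25 and -0.63. That is 0.526 of the WT level. With the replicate block 53 were called lower.

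The difference ended near this boundary. The 461 tested genes of the rest of the chromosome had a median of -0.03, with 8 called higher and 5 lower, and the 11848 other tested genes, some of them without a position, also had -0.03. Among 285 windows of 10 Mb with at least 10 tested genes, 4 had a median below -0.5 and all 4 lay on this stretch. The lowest median on another chromosome was -0.36 and the highest anywhere 0.22. In single libraries the median of the 97 genes against the WT mean was -0.92, -0.69, -0.97 and -0.90 in KO replicates 1 to 4, against -0.06 to 0.03 in the WT libraries, so no KO library reached the WT range.

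**Figure D4:**
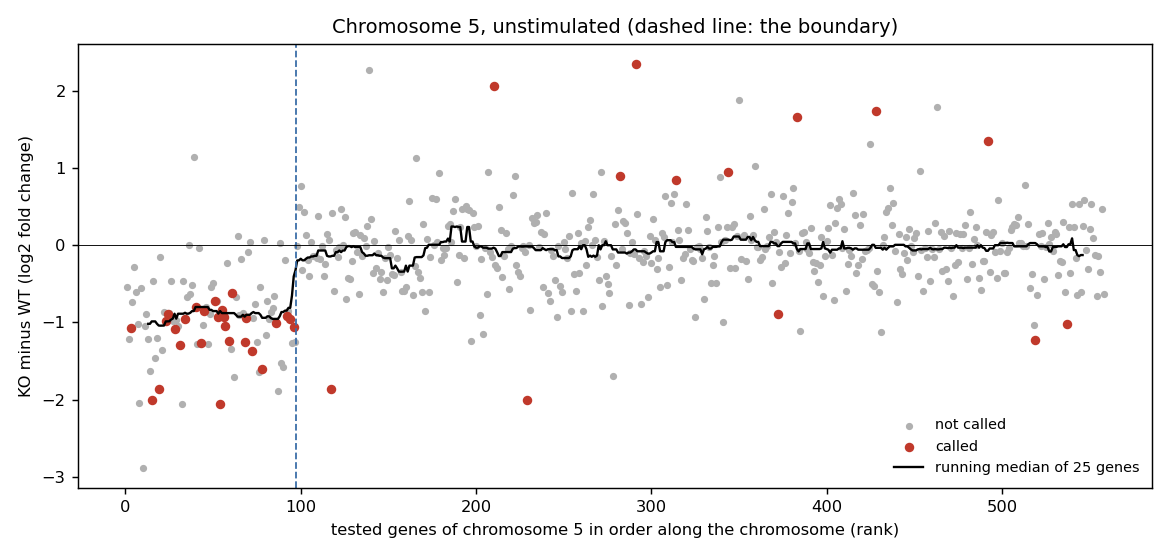
Log2 fold change of KO against WT for the tested genes of chromosome 5 in their order along the chromosome. The running median of 25 genes lies near -0.9 in the 97 genes before the boundary (dashed line) and near 0 in the 461 genes after it.

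The genes of this stretch have varied roles. RAI14, an actin-binding protein, had 326, 378, 342 and 314 in the WT libraries and 65.4, 78.3, 87.8 and 95.7 in the KO libraries (log2 fold change -2.05, SE 0.19, adjusted p = 1.57e-08). LPCAT1, an enzyme of phosphatidylcholine remodelling, had 631, 535, 775 and 517 in the WT libraries and 244, 138, 165 and 138 in the KO libraries (log2 fold change -1.86, SE 0.22, adjusted p = 1.05e-06), and NKD2, an inhibitor of Wnt signalling, had 488, 551, 798 and 497 in the WT libraries and 135, 86.8, 295 and 117 in the KO libraries (log2 fold change -2.004, SE 0.38, adjusted p = 0.000866). These 3 fell by more than the median of the stretch and did not overlap between the groups. OXCT1, which uses ketone bodies, and DAB2, an endocytic adaptor, had log2 fold changes of -1.61 and -1.37, CCT5, a chaperonin subunit, of -1.29, NNT, the mitochondrial transhydrogenase, of -0.95, and DROSHA, the nuclease of microRNA processing, of -0.85, all called. SDHA, a subunit of succinate dehydrogenase, had 1115, 1157, 766 and 974 in the WT libraries and 650.1, 646, 131 and 596 in the KO libraries, with KO replicate 3 far below the others, and was not called (log2 fold change -1.22, SE 0.62, adjusted p = 0.38). Without KO replicate 3 its log2 fold change was -0.65, and with the replicate block on 16 libraries it passed (adjusted p = 0.0012). The exceptions with a positive value were ANKH (1.15), SLC1A3 (0.12), C5orf51 (0.07), FYB1 (0.04) and HMGCS1, a sterol synthesis enzyme (0.03), none of them called. DNA was not analysed here, and the cause of the difference was not tested.

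Ribosomal protein genes were also chosen after their values were seen. Of 83 cytosolic ribosomal protein genes 81 had a negative log2 fold change (median -0.46), against 6658 of all 12406. Of the 83, 1 was called lower (1.1% of all genes), and 20 with the replicate block (2.51% of all genes). The median was -0.35 without replicate 3 of both groups and -0.27 without KO replicate 3 alone. Of 23 host genes of small nucleolar RNAs 3 were called lower, or 8 with the block, against the same shares of all genes, and all 23 had a negative log2 fold change (median -0.59). The share of reads on ribosomal protein genes, given above, also differed between replicate 3 and the other libraries.

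The same comparison after LPS used 8 other libraries of the same lines, numbered like the unstimulated ones. There 430 genes (3.47%) were called between KO LPS and WT LPS cells, 265 (2.14%) higher and 165 (1.33%) lower. With the replicate block the counts were 817 higher and 692 lower, and on the deposited scale 46.7% of the calls were higher in place of 61.6%. All 223 genes that were higher without LPS and all 137 that were lower kept their sign after it, and 172 and 99 of them were called. Their medians were 1.40 and -1.10 after LPS, against 1.54 and -1.22 before. The genes were selected on the values before LPS, which favours the medians before it. In the antiviral list 40 of 56 genes were called higher after LPS, and 28 genes of the chromosome 5 stretch were called lower (median -0.85). The difference of the 2 contrasts was called for 1 of 12406 genes (0.00806%), CCL5, a chemokine of T cells and monocytes, with 175 genes at an unadjusted p below 0.05. CD14 was one of the genes not called after LPS, with a log2 fold change of 0.13 there, and its interaction did not pass (adjusted p = 0.835).

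The HA and SA cells place the KO and WT values beside cells with an inactive and a phosphorylation-deficient ACLY. The comparisons share the KO or the WT libraries with the main one, so their values are given side by side only. For the 223 genes that were higher in KO cells, the median log2 difference from WT was 1.54 in KO, 0.97 in HA and 0.20 in SA cells. For the 137 lower genes it was -1.22, -0.93 and -0.11. Both sets were selected on the KO to WT difference in these same libraries. The selection favours the KO medians, so the order of the 3 lines is not a test. Between KO and HA cells 28 genes were called (0.226%), 25 (0.202%) higher and 3 (0.0242%) lower in KO cells. Between KO and SA cells 355 (2.86%) were called, 200 (1.61%) higher and 155 (1.25%) lower. On the deposited scale the median of all genes moved from -0.01 to -0.24 for KO against HA, where 10 of 28 calls were then higher, and from -0.01 to -0.36 for KO against SA, where 9.35% of 1134 calls were higher.

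**Figure D5:**
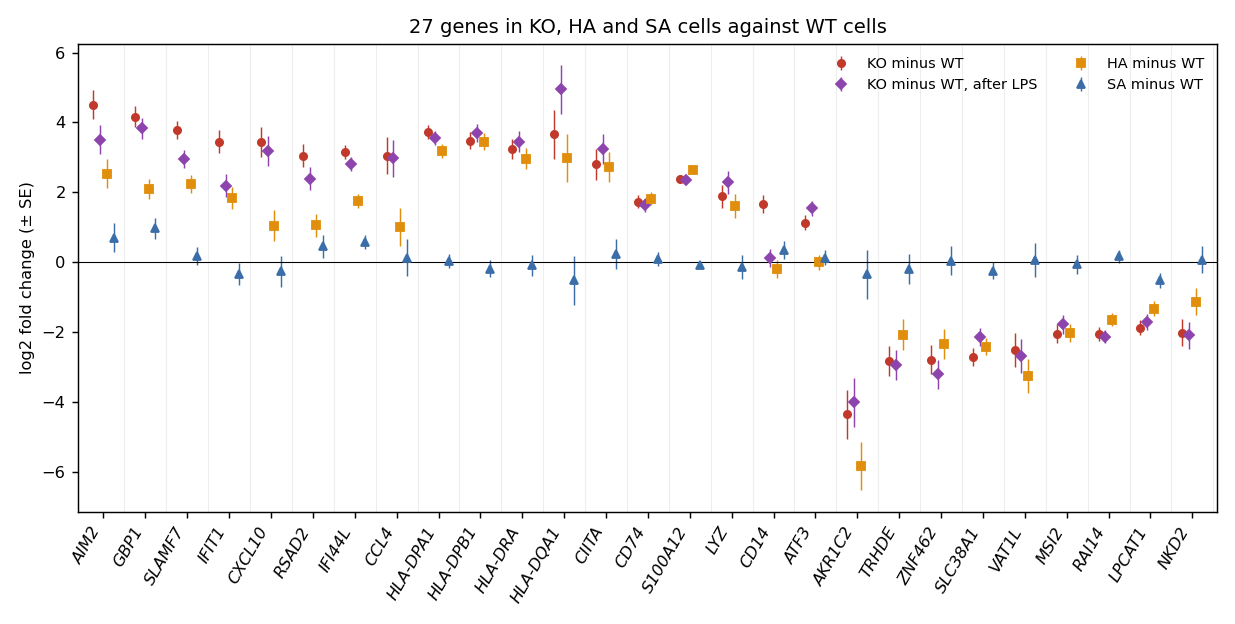
Log2 fold change with SE for 27 genes in KO cells against WT cells without and after LPS, and in HA and SA cells against WT cells, the latter without LPS. Without LPS, KO values are at least 2-fold from WT for all 27 genes, HA values for 25 (not CD14 and ATF3) and SA values, from -0.52 to 0.98, for none. The KO value of CD14 after LPS is below 2-fold. The 27 genes were chosen with their KO values known, so these counts describe the plotted genes only. Not all of the 25 passed the test in HA cells: CXCL10, CCL4, RSAD2 and NKD2 did not (adjusted p = 0.136, 0.234, 0.0532 and 0.0718).

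By family, the MHC class II genes of HA cells were close to those of KO cells, with a median log2 difference between KO and HA of 0.16 and no gene of 15 called. For HLA-DPA1 the log2 difference from WT was 3.73 in KO, 3.20 in HA and 0.04 in SA cells. In the antiviral list the median difference between KO and HA cells was 0.81, and 7 of 56 genes were called higher in KO cells (0.202% of all genes). IFI44L was at 3.16 against WT in KO, 1.75 in HA and 0.58 in SA cells, and KO exceeded HA by 1.42 (SE 0.20, adjusted p = 0.000347). GBP1 was at 4.16, 2.10 and 0.98 (KO against HA 2.06, adjusted p = 0.000347).

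Among the genes that rose in KO cells, CD14 and ATF3 were near the WT level in HA cells. CD14 was at 1.66 in KO and -0.20 in HA cells against WT, with KO above HA by 1.85 (SE 0.26, adjusted p = 0.000347). ATF3 was at 1.14 and 0.01 (KO against HA 1.13, adjusted p = 0.00681). These 2 were chosen after their values were seen. The chromosome 5 stretch had a median against WT of -0.93 in KO, -1.03 in HA and -0.05 in SA cells. The ribosomal protein genes had medians of -0.46, -0.55 and -0.13 in the same order.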

How the data were processed

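RNA of THP-1 cells was sequenced with the QuantSeq 3′ mRNA-Seq FWD kit in single-end mode. The authors used Bbduk for trimming, STAR for alignment to GRCh38, HTSeq-count for gene counts and DESeq2 for scaling and testing. Versions and the annotation release are not given in the sources used here. The deposited values are normalised counts, 1 table per line and treatment, with decimal commas and replicates kept apart.

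Dividing each library's values by its unit step gave whole numbers for 100% of them (tolerance 0.05 reads), which are the reads. The authors' size factors were median-of-ratios factors set within each line. They were replaced by factors computed jointly over the 32 libraries, relative to which the deposited scale shifts KO against WT by -0.09 (log2). This assumes that most genes did not differ. The 92 spike-in rows (1 read in all) were left out. Molecular identifiers are not mentioned in the sources used here, so reads may not be independent molecules, and depth limits genes near a mean of 10 reads most. Chi-square per gene within the 2 groups was 4.74 or more, far from a repeated library.

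Genes with a mean deposited count of at least 10 were fitted by limma (3.58.1, R 4.3.3) as log2(normalised reads + 1), with 1 mean per group over 8 groups, an eBayes trend and Benjamini-Hochberg adjustment over 12406 genes (limit 0.01, the limit used in the study). All adjusted p-values are from this two-sided test, and a called gene is one that passed it. Fold changes on this scale understate the change of low genes. KO and WT libraries of the same number deviated together (correlations across genes of 0.34, 0.48, 0.68 and 0.33). For unlike numbers the correlations ran from -0.62 to 0.37. KO replicate 2 with WT replicate 1, at 0.37, exceeded the same-number values of replicates 1 and 4. The match was thus clear for replicate 3 and less so for the others. The replicate number was used as a block in alternatives on the 8 or 16 KO and WT libraries. Other alternatives were the deposited and TMM scales, pseudocounts of 0.5 and 5, other filters on low genes, only the 8 libraries, and leaving out each library. Added after seeing the data were voom weights and the omission of both replicates 3. Count tests with edgeR or DESeq2 were not run, although whole reads had been recovered.

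The genes, the 21 lists (570 symbols) and the motifs were chosen with earlier results of these data known, so the counts of members called are descriptions. Named genes are ACLY, B2M, the genes the study names, the 15 largest rises and falls among called genes without overlap and with a mean of at least 50 in the higher group, and list members. Gene positions are from GENCODE release 44 (GRCh38), and promoter sequences from RefSeq (GRCh38.p14). A few genes that these rules would name are not reported here.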

Additional observations from a re-analysis of the deposited data

Results flagged for a closer look

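For each named gene and for 3 measures of the libraries, the library farthest from its group of 4 was examined in WT and KO cells. In 17 of 194 such groups 1 library stood far from the other 3 by Dixon's test at the 95% level. Chance flags about 1 in 20 groups, and groups of genes that move together are not independent. Replicate 3 accounted for 10 of the 17.

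In WT replicate 3 IRF7 was high at 72.8 normalised reads, FOXP4-AS1 high at 150.1, CD74 high at 2853, CIITA high at 21.3, S100A8 low at 14462 and S100A9 high at 37289.6, and the share of reads on ribosomal protein genes was 13.2%. In KO replicate 3 HLA-DPA1 was high at 650.0, HDAC6 high at 412 and SDHA low at 131. In WT replicate 4 GBP1 was high at 37.6, EPSTI1 at 234 and GBP3 at 56.0. IFIT1 was low in KO replicate 4 at 739.6, VIT low in KO replicate 2 at 8.47, HLA-F high there at 624, and CD14 high in KO replicate 1 at 314.

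CCL5 differed between the KO to WT contrasts without and after LPS. It had 1015, 970.3, 1204 and 1298 in the WT libraries and 864, 726, 836 and 767 in the KO libraries without LPS, where every KO library was below the WT libraries (log2 fold change -0.48, adjusted p = 0.0434, not called), and a log2 fold change of 0.92 after LPS. The difference of the contrasts was 1.40 (SE 0.20, adjusted p = 0.00158).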

How the results depend on the processing

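The number of genes called between unstimulated KO and WT cells, 360, was 320 to 384 on the deposited and TMM scales, with pseudocounts of 0.5 and 5, with another filter on low genes and with voom weights, and 276 to 312 when 1 library was left out. It was 179 with only these 8 libraries and no pairing, 724 and 1151 with the replicate block on 8 and 16 libraries, and 231 without both replicates 3. After LPS the count rose from 430 to 1509 with the replicate block. Between KO and HA cells it was 8 to 35 without 1 library, against 28, and was 8 and 10 without KO replicates 1 and 2 and 11, 15 and 14 without HA replicates 2, 3 and 4. Between KO and SA cells it was 228 to 312, against 355, lowest without KO replicate 1, and 1134 on the deposited scale. The cause of these changes was not tested.

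The cytokine median was 0.85 with a pseudocount of 5 and 1.84 for genes with a mean of at least 50, against 1.35. The cholesterol efflux median was 0.15 without both replicates 3, against -0.15, and -0.21 to 0.30 without 1 library (highest without KO replicate 3). The cell cycle median was -0.18 on the deposited scale, against -0.09, and -0.11 to -0.0441 without 1 library. Without 1 library the interferon signalling median was 0.26 to 0.67, the nucleic acid sensing median 0.38 to 0.80 and the acetyl-CoA median -0.11 to 0.0472 (all highest without KO replicate 3), the ribosomal protein median -0.55 to -0.27 (nearest to 0 without it), SDHA -1.42 to -0.65 (likewise) and the NRF2 median -0.0608 to 0.096 (highest without WT replicate 3). ABCA1 was -0.0498 on the deposited scale and -0.39 to 0.30 without 1 library, and FASN -0.12 to 0.0355. Of 94 named genes 71 were called, and none of these changed sign under any alternative. With the 8 libraries alone 21 of them lost their call, without both replicates 3 14, and with the replicate block on 8 libraries 1.

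DESeq2 and edgeR were planned and not run. The voom weights, the omission of both replicates 3, TMM for the comparisons with LPS, HA and SA, and the chromosome 5 and ribosomal groups were chosen after seeing the data. Precision is limited by 4 libraries per group, by replicate 3 and by depth for genes of few reads. Having 1 line per genotype leaves genotype and line inseparable.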
